A study of Bos taurus and Ovis aries and Capra hircus with 9 samples.

Results

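The genes of the main region of the major histocompatibility complex (MHC) were examined in the liver of 3 ruminants. In cattle they were all genes of chromosome 23 (ARS-UCD1.2) whose exons lay between 25 and 29 Mb, which gave 161 of the 27607 genes of the count tables. Sheep and goat genes were paired with cattle genes as reciprocal best matches of their ordered internal-exon lengths, and the stretch between the outermost pairs was taken with every gene in it. This stretch held 164 of 26478 genes in sheep (chr20:26634150-30900598, Oar_rambouillet_v1.0) and 163 of 27271 genes in goats (chr23:20953386-24096810, ARS1), where the order along the chromosome is reversed. Of the 10354 genes paired in all 3 species, 56 lay in the region. Cattle symbols were taken from RefSeq by position, as described with the processing, and paired sheep and goat genes carry the symbol of the cattle gene.

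Liver RNA was sequenced from 9 animals. The cattle were 3 Holstein, the sheep 3 Texel, and the goats 3 Yunnan black goats. All animals were adult and healthy, none carried a treatment, and each gave 1 library (A, B, and C within a species). The study's methods give a higher age range for the cattle than for the sheep and goats. The libraries were made from mRNA selected with oligo(dT) and copied with random hexamers. Species, breed, and gene annotation changed together, as did the age range between cattle and the others. Their parts cannot be told apart. The p-values measure the spread between 3 animals of 1 breed per species.

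The MHC is a gene-dense region of the immune system. Its class I heavy chains present peptides made inside a cell to cytotoxic T cells, and its class II alpha and beta chains present peptides taken up by macrophages, dendritic cells, and B cells. The class III stretch between them encodes the complement components C2, factor B, and C4, which hepatocytes secrete into plasma, with tumour necrosis factor, heat shock proteins, and many genes of general cell function. In ruminants, the class IIb genes together with TAP1 and PSMB8 lie apart from this region.

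Library totals ran from 16507706 counts in goat C to 61105490 in cattle C, and 3 counts corresponded to 0.0821 to 0.219 CPM. CPM is the count per 1000000 counts of the TMM-adjusted total of the shared genes. Goat C stood apart from the other libraries. It had a TMM factor of 1.56, against 0.848 to 1.09 in the others, and the lowest summed level of 5 paired hepatocyte markers, 45880 CPM, against 171100 and 176400 CPM in the other 2 goats. Goat results are therefore also given without goat C where this changed them. Mitochondrial genes took 9.61% to 10.9% of the counts in cattle and 1.09% to 3.70% in the other libraries.

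The label fitted most of the region. The first 0.418 Mb of the cattle region, from TMEM14A to ELOVL5, held glutathione S-transferase genes and other genes that are not part of the MHC, and is called the flank here. It contained 13 genes in cattle, 12 in sheep, and 13 in the goats. The class IIa side after ELOVL5 contained 19, 21, and 22 genes, the class III stretch from NOTCH4 to DDX39B 64, 69, and 63 genes, and the class I side 65, 62, and 65 genes. The class III stretch was 0.590 Mb long in cattle, 0.595 Mb in sheep, and 0.575 Mb in goats. In contrast, the class IIa side spanned 1.66 Mb in cattle, 1.82 Mb in sheep, and 0.806 Mb in goats. Of the 56 paired genes, 29 were in class III, 17 on the class I side, 7 in the flank, and 3 on the class IIa side.

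Most genes of the region were detected in the liver. A mean above 1 CPM was reached by 48 of the paired and 54 of the other genes in cattle, 52 and 59 in sheep, and 49 and 58 in goats, and a mean above 100 CPM by 18, 26, and 20 genes. The number of genes without a read in any library was 23 in cattle, 21 in sheep, and 25 in goats. Per kb of annotated exon, which allows genes to be compared with each other, the median level on the class IIa side was 0.0671 CPM per kb in cattle, 0.249 in sheep, and 0.297 in the goats. The class III median was 8.42, 9.07, and 7.54 CPM per kb. The class I side had medians of 1.92, 8.70, and 3.12 CPM per kb. The flank had medians of 8.37 CPM per kb in cattle, slightly below class III, and 25.5 in sheep. In sheep and goats, the flank median lay above those of the other stretches. The class IIa side thus had the lowest median in each species and combined a few abundant genes with many at or near 0.

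**Figure D1:**
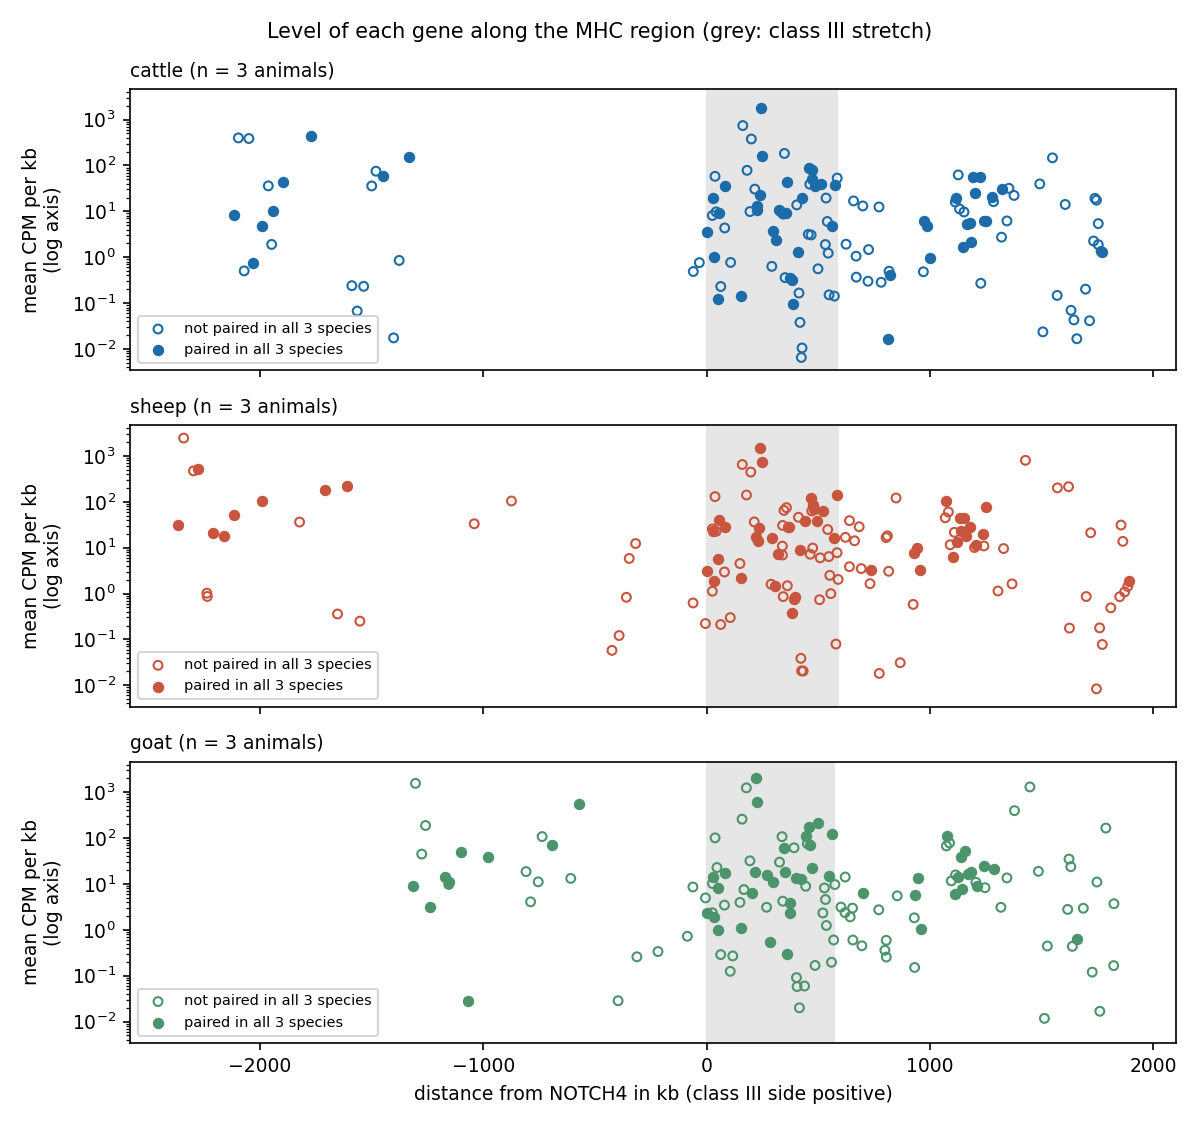
Mean CPM per kb of exon (log axis, n = 3 animals) of each gene against its distance from NOTCH4 in kb, with 1 panel per species. Filled points are genes paired in all 3 species, open points are the other genes, genes at 0 in every library are not drawn, and the grey band is the class III stretch, which holds the highest point of the cattle and goat panels, CFB at 1822 and 2009 CPM per kb.

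The region as defined here, with the flank, took a different share of each species' libraries. It held 1.31%, 1.13%, and 0.857% of all counts in cattle A, B, and C, 1.52%, 1.36%, and 1.64% in sheep, and 2.05%, 1.82%, and 2.02% in goats. The 3 species did not overlap. The means were 1.10% ± 0.226 (SD, n = 3), 1.51% ± 0.141, and 1.96% ± 0.129. In each of the 3 comparisons, the two-sided exact permutation test gave p = 0.1, the smallest that 3 against 3 libraries allow, and 0.1 after Benjamini-Hochberg adjustment. The separation of sheep from cattle and from goats depended on the flank. Without it, an alternative added after seeing the data, the shares were 1.12%, 0.933%, and 0.803% in cattle, 1.10%, 1.12%, and 1.30% in sheep, and 1.54%, 1.28%, and 1.78% in goats. Cattle A then lay above sheep A, and goat B lay below sheep C (exact two-sided permutation p of 0.2, 0.1, and 0.2).

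Within the region, most counts fell on class III. Its share was 75.9% ± 5.78 (SD, n = 3) of the region's counts in the cattle libraries, 62.2% ± 4.09 in sheep, and 62.2% ± 3.20 in the goats. The C2, CFB, and C4 genes alone took 64.6%, 58.6%, and 65.3% in the 3 cattle, 48.2%, 52.8%, and 56.8% in the 3 sheep, and 53.9%, 49.97%, and 44.2% in the 3 goats. No cattle library overlapped a sheep or goat library, whereas sheep and goats overlapped. For both shares, the exact two-sided permutation p was 0.1 between cattle and either other species, the smallest possible (0.15 adjusted). Between sheep and goats, this p was 1 for class III and 0.5 for complement genes. The flank held 12.8% ± 5.88 of the region's counts in the cattle libraries, 22.1% ± 5.22 in sheep, and 22.3% ± 9.04 in goats. Without the flank, class III took 86.0% to 87.7% of the remaining counts in the cattle libraries, 76.9% to 82.6% in the sheep libraries, and 74.4% to 83.8% in those of the goats, and cattle still did not overlap the others (exact p of 0.1). The complement share then overlapped, with 69.6% to 75.5% for cattle, 64.1% to 71.6% for sheep, and 50.3% to 71.7% for goats (exact two-sided permutation p of 0.3, 0.5, and 0.9). In CPM, the summed complement genes did not separate the species, with 11370 ± 2712 in cattle, 12120 ± 1404 in sheep, and 14590 ± 4640 in goats (exact two-sided permutation p from 0.3 to 0.8). Goat C alone made the goats overlap the others. Goats A and B, with 18890 and 15210 CPM, lay above every cattle library (at most 14460) and every sheep library (at most 13160), and goat C had 9673 CPM. With only the genes paired in all 3 species, which by construction leaves C4 out, the cattle share of class III fell 4.03 percentage points below that of sheep and 10.4 below that of goats.

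**Figure D2:**
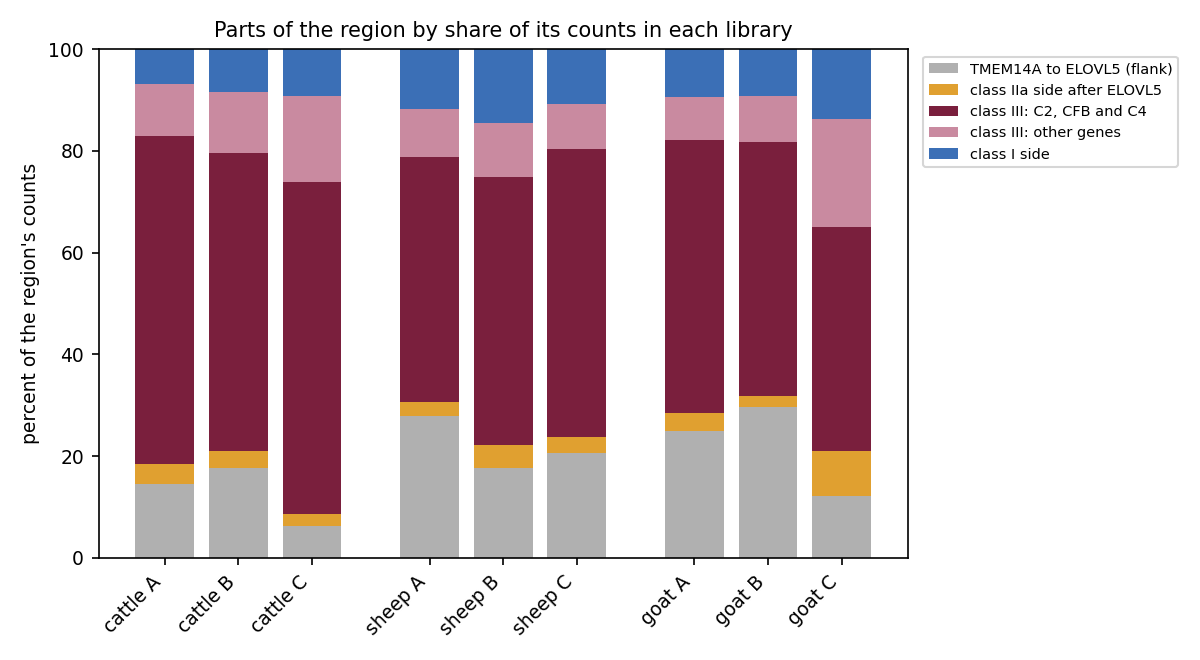
Percent of the region's counts that fell on each of 5 parts, with 1 stacked bar per library. The dark part, C2, CFB and C4, takes 58.6% to 65.3% in the cattle bars and 44.2% to 56.8% in the sheep and goat bars, and goat C has the largest part of class I, class IIa and other class III genes among the goats.

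The 53 paired genes that passed the filter on low values were compared between species in 1 edgeR quasi-likelihood fit of all 8972 shared genes tested, with Benjamini-Hochberg adjustment over all of them. GCM1, BTNL2, and POU5F1 did not pass the filter. Between cattle and sheep, 28 of the 53 genes differed, beside 48.7% of all genes tested. Of these, 6 were higher in cattle, beside 23% of all genes, and 22 were higher in sheep, beside 25.7%. The median log2 difference of the members, cattle minus sheep, was -0.57, and that of all genes was -0.01. Between cattle and goats, 34 genes differed, beside 52.5% of all genes. Higher in cattle were 11 genes, beside 25.5% of all, and higher in goats were 23, beside 27.0%, with a median of -0.64 against -0.05 over all genes. Both comparisons share the cattle libraries. Between sheep and goats, 10 genes differed, beside 25.5% of all, with 6 higher in sheep (12.3% of all) and 4 higher in goats (13.2%). Without goat C, 14 genes differed, beside 25.6% of all.

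Annotated exon length differed between the species and was not corrected in this fit. With the exon length of each species as an offset, the median of all genes was -0.43 for cattle minus sheep, -0.25 for cattle minus goats, and 0.18 for sheep minus goats. Without the offset, these medians were -0.01, -0.05, and 0.07. Then 26, 29, and 18 members were called, beside 49.5%, 51.4%, and 26.6% of all genes. They split into 2 higher in cattle and 24 higher in sheep, 8 higher in cattle and 21 higher in goats, and 13 higher in sheep and 5 higher in goats. Of the calls over all genes, 25.7%, 37.1%, and 67.9% were then higher in the first species, and of the members' calls 7.69%, 27.6%, and 72.2%. The medians of the members were then -0.84, -0.26, and 0.32. Between cattle and goats, the members' median of -0.26 then lay next to that of all genes, -0.25.

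By stretch, class III had 3 genes higher in cattle and 11 higher in sheep of 29 tested, and 5 higher in cattle and 13 higher in goats. The class III genes called were thus 48.3% and 62.1%, beside 48.7% and 52.5% of all genes, and those lower in cattle 37.9% and 44.8%, beside 25.7% and 27.0%. On the class I side, 2 of 16 genes were higher in cattle and 7 higher in sheep, and 5 were higher in cattle and 6 in goats, which is 56.2% and 68.8% called. In the flank, 1 of 6 genes was higher in cattle and 3 were lower in both comparisons. On the class IIa side, 1 of the 2 genes tested was lower in cattle than in either other species.

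**Figure D3:**
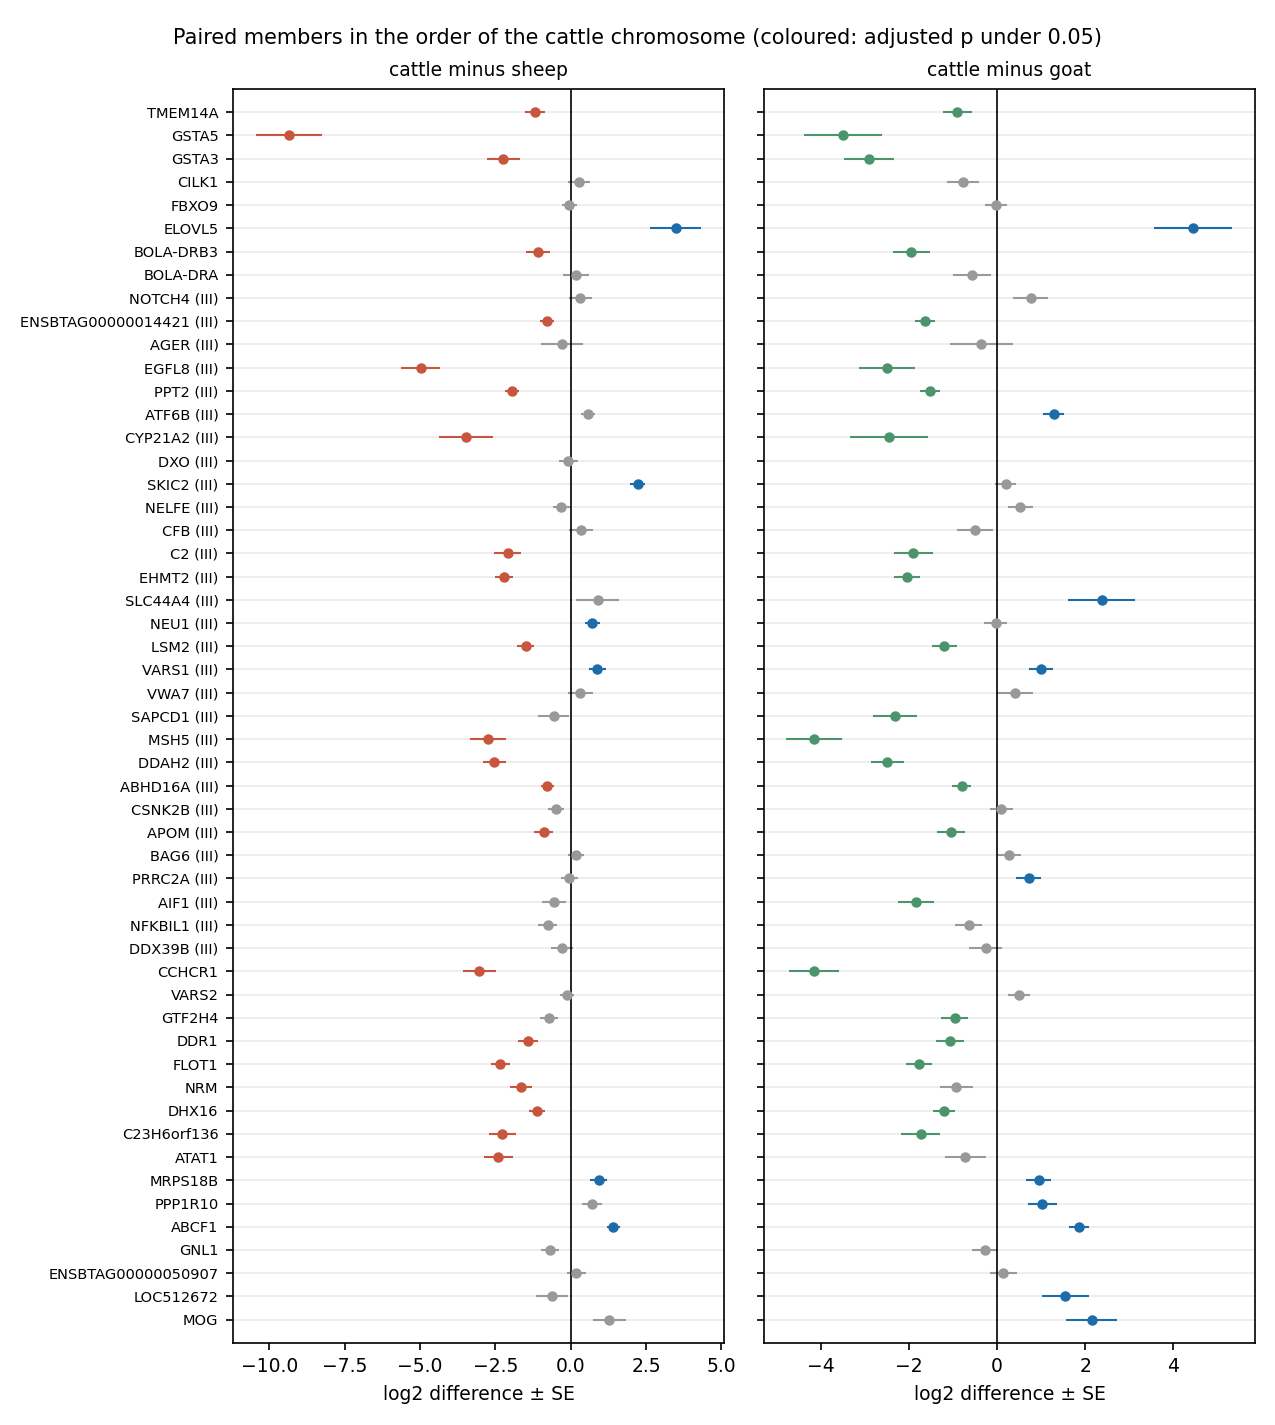
Log2 difference ± SE of the 53 tested genes in the order of the cattle chromosome, cattle minus sheep (left) and cattle minus goats (right), with class III genes marked III. Blue points are higher in cattle, red and green points are higher in sheep and goats (adjusted p under 0.05), grey points were not called, and DXO is left out of the right panel because all goat libraries were at 0; 22 red points stand against 6 blue ones on the left.

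Of the single gene models for complement, CFB had the highest mean in each species, but the summed C4 copies were above it in cattle and sheep. CFB encodes factor B, the protease of the alternative pathway, and lies at chr23:27415355-27421377 on the minus strand. CFB had 5700, 4259, and 3916 CPM in cattle A, B, and C, 3178, 4666, and 3188 CPM in sheep, and 7348, 8475, and 3830 CPM in goats. The species overlapped, and goat C was lower than the other 2 goats. By mean level, CFB ranked 36th of the 27607 cattle genes, 48th of the 26478 sheep genes, and 29th of the 27271 goat genes. The log2 difference was 0.33 ± 0.40 (SE) for cattle minus sheep, -0.50 ± 0.41 for cattle minus goats, and -0.83 ± 0.41 for sheep minus goats, with adjusted p of 0.516, 0.313, and 0.157. Without goat C, CFB was higher in goats than in cattle (log2 difference -0.76, adjusted p 0.0481) and than in sheep (-1.18, adjusted p 0.0143). DESeq2 and edgeR without TMM factors also called CFB higher in goats than in sheep (-0.88 and -0.86).

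C2, the neighbour of CFB at chr23:27421810-27433479, encodes the protease of the classical and lectin pathways that acts together with C4. It was lower in cattle than in both small ruminants. C2 had 630, 383, and 271 CPM in cattle, 1466, 2273, and 1766 CPM in sheep, and 2212, 1682, and 882 CPM in goats. All cattle libraries were below all sheep and goat libraries. The difference was 4.29-fold for sheep against cattle (log2 cattle minus sheep -2.10 ± 0.45 SE, adjusted p 0.00274) and 3.72-fold for goats against cattle (-1.90 ± 0.45, adjusted p 0.00447). Sheep and goats differed by 0.20 ± 0.43 (adjusted p 0.769). Per kb of exon, C2 had 160 CPM in cattle, 745 in sheep, and 614 in goats, against 1822, 1513, and 2009 CPM per kb for CFB. The C2 calls against cattle were kept in every alternative, including without goat C, where the cattle minus goat difference was -2.17. Markers of hepatocytes, the cells that make C2, moved with it in part. The 5 paired markers of 8 listed summed to between 67780 and 84180 CPM in the cattle libraries, between 160400 and 245800 CPM in sheep, and between 45880 and 176400 CPM in goats, with none at 0. Against sheep, ALB (-1.54), SERPINA1 (-1.29), and AHSG (-2.71) were lower in cattle and APOB (4.82) was higher, and against goats AHSG (-2.44) was lower and the others were not called. In goats A and B, each of the 5 markers lay above every cattle library, with ALB at 134000 and 131000 CPM against 52550 to 59570 CPM. Goat C lay below the cattle libraries for ALB (32100 CPM) and TF, within their range for SERPINA1, and above them for APOB and AHSG. In bulk liver, fewer cells of a type and less RNA per cell cannot be told apart, and the part of hepatocyte content in the C2 values was not tested.

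C4, the component cleaved in the classical and lectin pathways, had several near-identical genes, between which the assignment of reads is uncertain. It was therefore summed over genes with at least 10 exon lengths, and at least 50% of them, shared with cattle C4A (chr23:27372094-27386883). There were 3 such genes in cattle, 3 in sheep, and 1 in the goats. The sum was 8132, 5608, and 5209 CPM in cattle, 5879, 6217, and 7730 CPM in sheep, and 9330, 5048, and 4961 CPM in goats. The species overlapped, and the means of 6317 ± 1585 (SD, n = 3), 6609 ± 986, and 6447 ± 2498 CPM differed by less than the spread between animals (exact two-sided permutation p of 0.7, 1, and 1). Among the C4 genes of cattle, LOC107131209 had the highest level, 3865 ± 792 CPM, followed by C4A with 2085 ± 668 CPM and LOC781663 with 366 ± 142 CPM. LOC781663 lies on the plus strand between the other 2, which are on the minus strand. Sheep had the same arrangement, with C4A at 3500 ± 496 CPM, ENSOARG00020009383 at 2393 ± 213 CPM, and ENSOARG00020007482 on the opposite strand at 716 ± 281.6 CPM. In goats, ENSCHIG00000021630 had 6447 ± 2498 CPM, and ENSCHIG00000023354, on the opposite strand, shared 18 exon lengths with C4A but fewer than 50% of its own. It had 1170, 917, and 2251 CPM and raised the goat sum to 7892 ± 2343 CPM when it was counted.

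**Figure D4:**
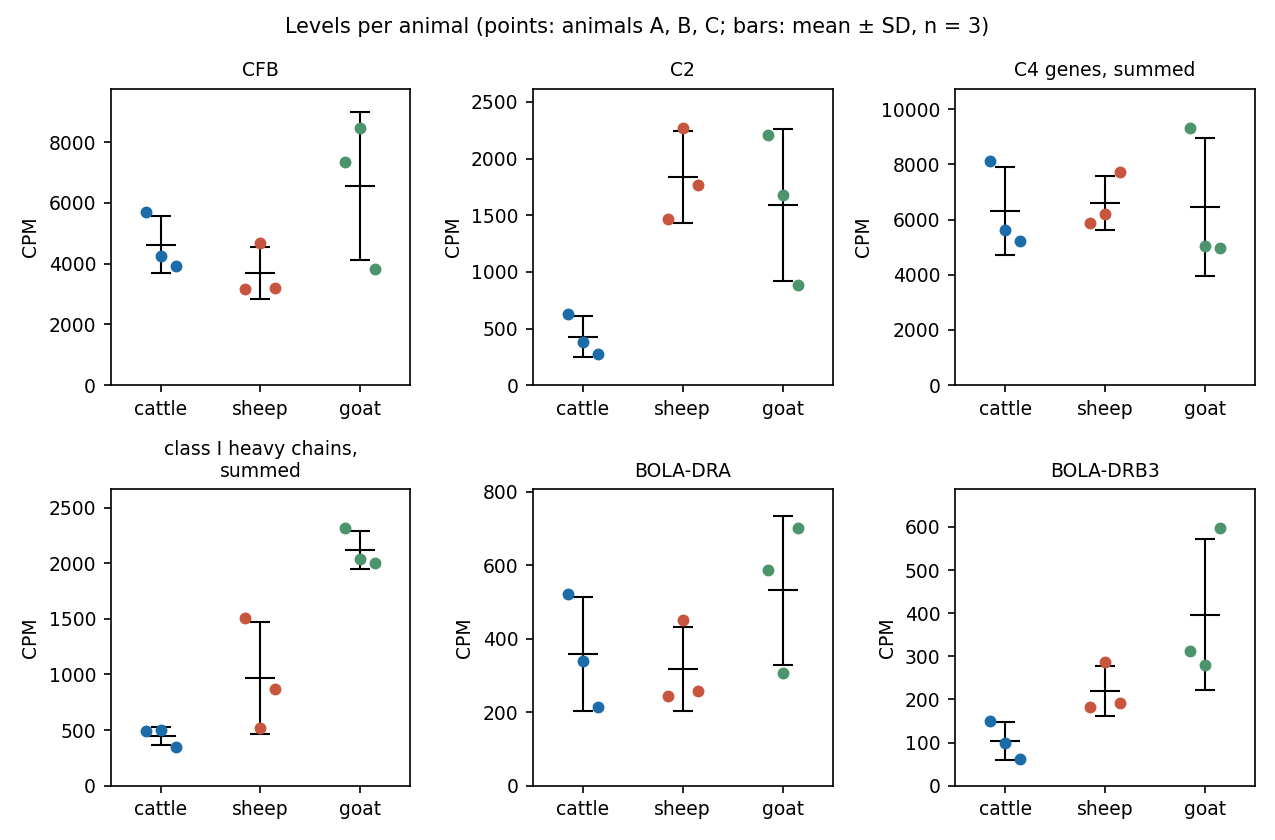
CPM of 6 genes or sums in each animal (points) with the mean ± SD of 3 animals per species (bars), on linear axes from 0. C2 lies at 271 to 630 CPM in cattle and at 882 to 2273 CPM in sheep and goats, C4 and CFB overlap between species, and the class I sum rises from cattle (351 to 501 CPM) over sheep to goats (1999 to 2315 CPM).

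Of 22 complement genes outside the region that had been listed, 14 were paired and tested. Between cattle and sheep, 0 were higher and 2 were lower in cattle, CFD and MASP2. C3, the central component, had 36120, 26830, and 23110 CPM in cattle, 20170, 25790, and 28420 CPM in sheep, and 28450, 25360, and 10450 CPM in goats, and was not called (cattle minus sheep 0.21 ± 0.46, adjusted p 0.72). CFD, the protease that activates factor B, had 218, 175, and 119 CPM in cattle, 785, 1443, and 658 CPM in sheep, and 1250, 662, and 973 CPM in goats. It was lower in every cattle library (-2.49 ± 0.42 against sheep, adjusted p 0.000675, and -2.49 ± 0.42 against goats, adjusted p 0.000654). Between cattle and goats, C5 was higher in cattle, and CFD, MASP1, and MASP2 were lower, beside 25.5% and 27.0% of all genes. MASP1 was lower in sheep than in goats, as were 13.2% of all genes. The median of the 14 log2 differences was 0.39 for cattle minus sheep and 0.35 for cattle minus goats. The calls of MASP2 against sheep and C5 against goats were lost without any 1 cattle or sheep library or goat B (adjusted p up to 0.151 and 0.122). MASP1 lost its call between cattle and goats without cattle B (adjusted p 0.0699). Its call between sheep and goats (-0.96) was lost without cattle B, any 1 sheep library, goat A, or goat B (adjusted p up to 0.0887), and the difference reached 0.30 among the alternatives.

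The class II genes of the region showed high levels of the DR chains and low levels of most others. BOLA-DRA, the alpha chain of the DR molecule (chr23:25837353-25843155), had 521, 340, and 213 CPM in cattle, 244, 450, and 259 CPM in sheep, and 587, 307, and 701 CPM in goats. The species overlapped, and no comparison was called (adjusted p 0.754, 0.278, and 0.23). With the exon-length offset, BOLA-DRA was called higher in goats than in cattle (-1.88, adjusted p 0.0043) and than in sheep (-1.36, adjusted p 0.0382). BOLA-DRB3, the beta chain of DR (chr23:25723715-25735337), had 149, 98.9, and 60.8 CPM in cattle, 184, 287, and 191 CPM in sheep, and 311, 280, and 597 CPM in goats. The cattle libraries were below all others. BOLA-DRB3 was 3.85-fold higher in goats than in cattle (-1.95 ± 0.41, adjusted p 0.00249), and -1.51 without goat C, but the call was lost with the exon-length offset (-0.26), where the gene was 1.37 higher on the log2 scale in sheep than in goats instead of 0.85 lower. Against sheep (-1.10 ± 0.40, adjusted p 0.0412) the call was lost without TMM factors (adjusted p 0.0647) and without cattle B or C or any of the 3 sheep libraries, with adjusted p up to 0.15. Class II genes are near-identical copies, so the pairing and the assignment of their reads are uncertain.

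Of the other class II genes of cattle, BOLA-DQB1 had 71.5, 31.7, and 24.1 CPM and LOC100848815, an alpha chain by its exon lengths, 136, 87.8, and 31.5 CPM. BOLA-DQA2, BOLA-DQA5, and BOLA-DQB stayed at means of 0.367, 0.394, and 0.0961 CPM. BOLA-DQA2 and BOLA-DQA5 were at 0 in cattle A and B and at 1.10 and 1.18 CPM in cattle C. LA-DRB had at most 0.0358 CPM, and BOLA-DRB2 and BTNL2 were at 0 in all cattle libraries. BTNL2, a butyrophilin-like gene at the border to class III, was also at 0 in all sheep and goat libraries.

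On the class IIa side, levels differed strongly between single animals. For each gene above 1 CPM, the highest of the 3 animals was divided by the lowest, which was set to at least 3 counts. On the class IIa side, the median of this ratio was 2.89 in cattle (7 genes), 5.28 in sheep (9 genes), and 6.75 in goats (10 genes), whereas over all genes it was 1.35, 1.62, and 1.95. In class III it was 1.32, 1.58, and 1.81, on the class I side 1.52, 1.96, and 1.80, and in the flank 3.98, 1.94, and 1.96. In cattle the flank was thus above the class IIa side, and in goats 3 of its 10 genes had a ratio above 10, beside 2 of 10 on the class IIa side. A ratio above 10 was found in 0.980% of the members in cattle, 5.41% in sheep, and 9.35% in goats, beside 0.579%, 1.26%, and 2.09% of all genes. The following genes were chosen after their values were seen. Goat LOC100848815 had 211 CPM in goat A and 253 CPM in goat C but 2.27 CPM in goat B. Sheep ENSOARG00020013010, on the class I side, had 60, 25770, and 6393 counts, or 2.19, 1161, and 308 CPM. ENSOARG00020021487, a class II beta gene by its exon lengths, had 16.1, 191, and 52.4 CPM, so sheep B was the highest in both.

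Class I heavy chain genes were recognised by the lengths of 2 consecutive internal exons, a rule chosen after the files were seen that can miss genes with merged or partial models. Over the whole count tables it found 7 genes in cattle, 11 in sheep, and 13 in the goats. Of these, 5, 6, and 9 lay in the region, and only these were summed. Their sum was 489, 501, and 351 CPM in cattle, 1509, 523, and 869 CPM in sheep, and 2315, 2040, and 1999 CPM in goats. No library of 1 species overlapped another species. The means were 447 ± 83.5 (SD, n = 3), 967 ± 501, and 2118 ± 172 CPM, 4.74-fold apart between goats and cattle. The exact two-sided permutation p was 0.1 in each comparison, the smallest possible, and 0.42 after adjustment over the 21 comparisons of summed levels. On the scale of library totals the order of the means stayed (273, 657, and 1472 CPM), but sheep B with 285 CPM lay within the cattle range of 209 to 325 CPM. The highest gene held 54.5% of the sum in cattle, 80.1% in sheep, and 74.9% in goats.

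In cattle, this gene was BOLA (chr23:28720501-28724399), with 270, 290, and 170 CPM, followed by JSP.1, another class I heavy chain, with 61.4 ± 43.0 CPM. BOLA-NC1, a non-classical class I gene that the exon rule did not find, had 34.7, 54.5, and 65.9 CPM. MIC2, a stress-induced class I-like gene, had at most 0.821 CPM. In sheep, the highest class I gene was ENSOARG00020013189, with 1376, 240, and 708 CPM. In goats it was ENSCHIG00000019467, with 1769, 1636, and 1352 CPM, and ENSCHIG00000009614 followed with 428, 346, and 546 CPM. Neither goat gene was paired with a cattle gene, and the goat gene paired with BOLA had 4.76, 2.71, and 4.59 CPM, so pairs of class I copies are uncertain. LOC512672, the 1 class I gene by this rule that was paired in all 3 species, had 43.5, 75.0, and 79.9 CPM in cattle, 66.4, 149, and 90.4 CPM in sheep, and 44.5, 8.63, and 14.7 CPM in goats. It was 4.50-fold higher in sheep than in goats (2.17 ± 0.54, adjusted p 0.0133). Its call against cattle (1.54 ± 0.53, adjusted p 0.03) was lost without cattle B or C or goat B or C, with adjusted p up to 0.0935, and with the exon-length offset.

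Genes of class I and class II presentation outside the region were listed as well, and 6 of the 16 were paired and tested. Lower in cattle than in sheep were 4, CIITA, NLRC5, PSMB8, and TAP1, and lower in cattle than in goats were all 6, with BOLA-DMB and CTSS, while 0 were higher in cattle. Of all genes tested, 25.7% and 27.0% were lower in cattle. PSMB8, a subunit of the immunoproteasome, had 29.3, 16.9, and 16.0 CPM in cattle, 61.4, 130, and 68.4 CPM in sheep, and 121, 79.4, and 205 CPM in goats. The log2 difference was -2.07 ± 0.42 against sheep (adjusted p 0.00198) and -2.71 ± 0.43 against goats (adjusted p 0.000424). TAP1, which carries peptides into the endoplasmic reticulum, had 25.7, 18.1, and 14.7 CPM in cattle, 43.4, 59.6, and 46.2 CPM in sheep, and 70.2, 42.7, and 117 CPM in goats (-1.35 ± 0.36, adjusted p 0.009, and -1.97 ± 0.37, adjusted p 0.00108). In both genes the cattle libraries did not overlap the others. CIITA and NLRC5, which activate class II and class I transcription, lost their calls against sheep without any 1 of the 3 cattle libraries, sheep A, or sheep B, and NLRC5 also without sheep C (adjusted p up to 0.11 and 0.129). BOLA-DMB was lower in sheep than in goats (-0.95), a call lost without cattle B, sheep A, sheep C, goat A, or goat C (adjusted p up to 0.144), and the difference reached 1.39 among the alternatives. CTSS lost its call against goats without cattle B or C, sheep A or C, or goat C (adjusted p up to 0.182). For cattle minus goats, the CTSS difference of -0.96 shrank to -0.555 among the alternatives. That of BOLA-DMB, -1.66, shrank to -0.38.

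Markers of immune cells moved with these genes in part. The 2 paired T cell markers of 5 listed, CD3D and CD2, summed to 7.21 to 8.94 CPM in cattle, 19.2 to 36.3 CPM in sheep, and 12.8 to 23.8 CPM in goats. The 2 B cell markers of 5, CD79B and MS4A1, summed to 2.06 to 2.52, 1.11 to 4.13, and 5.97 to 16.6 CPM. The 2 macrophage markers of 6, CD163 and CSF1R, summed to 499 to 620, 460 to 692, and 562 to 753 CPM. None of these markers was at 0 in any library. The part of immune cell content in the class I, class II, and AIF1 values was not tested.

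Among the cytokine and leukocyte genes of class III, AIF1, a calcium-binding protein of macrophages, was the 1 gene that could be tested. AIF1 had 40.6, 22.6, and 17.0 CPM in cattle, 31.3, 51.8, and 34.4 CPM in sheep, and 67.5, 68.3, and 150 CPM in goats. Goats were above cattle in every library, and AIF1 was 3.56-fold higher (-1.83 ± 0.41, adjusted p 0.00331, and -1.33 without goat C). Its call against sheep (-1.28 ± 0.40, adjusted p 0.0372) was lost without TMM factors (adjusted p 0.0548) and without sheep A or C or goat C, with adjusted p up to 0.125. TNF, the gene of tumour necrosis factor, had 3.08, 2.41, and 1.16 CPM in cattle, LTB 4.93, 4.32, and 3.30 CPM, NCR3, a receptor of natural killer cells, 1.29, 1.42, and 1.10 CPM, and LTA 0.107, 0.192, and 0.275 CPM. The heat shock gene HSPA1A had 484, 366, and 508 CPM, whereas its neighbour HSPA1L had 0.743 to 0.965 CPM. HSPA1A has near-identical copies and was not paired.

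The housekeeping list of class III had 15 genes with a symbol, of which 11 were tested. Between cattle and sheep, 2 were higher in cattle, 3 were lower, and 6 were not called. Between cattle and goats, 3 were higher, 3 were lower, and 5 were not called, and between sheep and goats 1 was higher, 1 was lower, and 9 were not called. The shares of all genes called in these comparisons were 48.7%, 52.5%, and 25.5%. EHMT2, a histone H3 lysine methyltransferase, had 17.7, 14.7, and 14.7 CPM in cattle, 64.5, 90.6, and 63.1 CPM in sheep, and 47.7, 53.4, and 93.2 CPM in goats. It was 4.63-fold lower in cattle than in sheep (-2.21 ± 0.30, adjusted p 0.000166) and 4.12-fold lower than in goats (-2.04 ± 0.30, adjusted p 0.000269). DDAH2, of the dimethylarginine dimethylaminohydrolase family, had 2.25, 1.97, and 1.93 CPM in cattle, 10.5, 17.98, and 7.42 CPM in sheep, and 9.37, 11.4, and 13.8 CPM in goats, 5.83-fold and 5.62-fold higher than in cattle. Both genes kept their calls in every alternative, and their cattle libraries did not overlap the others.

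Other genes of this list went the opposite way or did not differ. VARS1, the valyl-tRNA synthetase, had 189, 190, and 233 CPM in cattle, 110.8, 127, and 93.6 CPM in sheep, and 80.8, 91.4, and 136 CPM in goats. It was higher in cattle than in goats (0.99 ± 0.27, adjusted p 0.00983), a call lost without TMM factors (0.72, adjusted p 0.114). Its call against sheep (0.89 ± 0.27, adjusted p 0.0184) was lost without TMM factors (0.79), with the exon-length offset (0.68), and without cattle C, sheep A, or sheep C (adjusted p up to 0.0763). ATF6B, a factor of the unfolded protein response, had 90.9, 85.9, and 98.7 CPM in cattle and 34.2, 31.5, and 47.5 CPM in goats (1.28 ± 0.23, adjusted p 0.000884). Its call between sheep and goats was lost without any 1 library except goat C (adjusted p up to 0.137), and so was that of PRRC2A between cattle and goats (adjusted p up to 0.18). Both were also lost without TMM factors (0.58 and 0.45), and the PRRC2A call with the exon-length offset (0.66). Between sheep and goats PRRC2A was not called (0.76, adjusted p 0.0654), but without goat C it was higher in sheep (0.93, adjusted p 0.0167). BAG6, a chaperone of membrane proteins, had 284, 297, and 322 CPM in cattle, 251, 305, and 245 CPM in sheep, and 240, 209, and 294 CPM in goats, and was not called (0.17 ± 0.26 and 0.28 ± 0.26). CSNK2B and DDX39B, a subunit of casein kinase and an RNA helicase, were not called in any comparison either. The annotated exons of DDX39B are longer in cattle, and with the offset it was lower in cattle than in sheep (-1.91, adjusted p 0.0019) and than in goats (-1.77, adjusted p 0.00308).

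For some genes the direction depended on the gene model. SKIC2, an RNA helicase, had 49.0, 43.7, and 55.3 CPM in cattle, 13.0, 9.37, and 9.44 CPM in sheep, and 45.2, 36.7, and 47.2 CPM in goats. It was higher in cattle than in sheep by 2.22 ± 0.25 on the log2 scale, but -0.06 with the exon-length offset, and lower in sheep than in goats by -2.02 ± 0.25, which became 1.08. With the offset it was also higher in cattle than in goats (1.02, adjusted p 0.00412). ABHD16A was higher in sheep than in cattle (-0.78, adjusted p 0.0127, lost without cattle B or C with adjusted p up to 0.0677) and higher in goats than in cattle (-0.80, adjusted p 0.0102), which turned to 0.63 with the offset. DXO, an enzyme that removes RNA caps and overlaps SKIC2, had 24.96, 19.7, and 27.1 CPM in cattle and 20.4, 35.4, and 19.9 CPM in sheep, and was at 0 in all goat libraries. With 3 counts per library as the floor, the level from reads assigned to DXO was at least 128-fold higher in cattle and at least 135-fold higher in sheep. In the goat annotation 100% of its exon bases lay under SKIC2, and how reads in such overlaps were counted is not given in the sources used here. These bounds therefore cover assigned reads only. DXO is included in the counts of genes called higher in cattle and in sheep than in goats.

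Some class III genes differed at low levels. MSH5, a meiotic homologue of mismatch repair proteins, had 0.250, 0.219, and 0.468 CPM in cattle, 2.08, 1.71, and 2.65 CPM in sheep, and 1.87, 5.78, and 9.38 CPM in goats (-2.75 ± 0.61, adjusted p 0.00322, and -4.15 ± 0.63, adjusted p 0.000311). CYP21A2, the steroid 21-hydroxylase, had 0.393, 0.192, and 0.330 CPM in cattle, 0.694, 2.16, and 7.56 CPM in sheep, and 0.961, 0.658, and 3.41 CPM in goats. It was lower in cattle than in sheep (-3.49 ± 0.90, adjusted p 0.00754), and its call against goats was lost without any 1 cattle library or goat C (-1.40 without goat C, adjusted p up to 0.223). EGFL8 had 0.0821 to 0.250 CPM in cattle, 2.26 to 6.65 CPM in sheep, and 0.480 to 1.18 CPM in goats, so that the cattle values were at or near the floor of 3 counts, and 94.4% of its goat exon bases lay under another gene. SAPCD1 had at most 2.56 CPM and SLC44A4 at most 12.5 CPM in any library. SLC44A4, a choline transporter-like protein, was higher in cattle than in goats (2.37 ± 0.77, adjusted p 0.0224), a call lost without TMM factors (adjusted p 0.0516) and without cattle C, goat A, or goat B (adjusted p up to 0.19). SAPCD1 was higher in goats than in cattle (-2.32 ± 0.50, adjusted p 0.00277), and its call against sheep was lost without sheep A, sheep B, or goat B (adjusted p up to 0.0906). The receptor genes NOTCH4 and AGER were not called, with 8.65 to 25.7 CPM and 0.192 to 4.53 CPM. Without goat C, NOTCH4 was higher in cattle (1.38, adjusted p 0.00607) and in sheep (0.97, adjusted p 0.0491) than in goats.

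On the class I side, the list of extended class I genes had 13 genes with a symbol and 6 tested. Between cattle and sheep, 1 was higher in cattle, 2 were lower, and 3 were not called. Between cattle and goats 2 were higher, 3 were lower, and 1 was not called, while 0 of 6 were called between sheep and goats. Called among all genes were 48.7%, 52.5%, and 25.5%. FLOT1, a scaffold protein of membrane rafts, had 48.2, 42.1, and 31.7 CPM in cattle, 180, 272, and 163 CPM in sheep, and 172, 126, and 120 CPM in goats. It was 5.04-fold higher in sheep (-2.33 ± 0.30, adjusted p 0.000115) and 3.42-fold higher in goats (-1.78 ± 0.30, adjusted p 0.000573) than in cattle, and kept both calls in every alternative. ABCF1, which acts in translation initiation, had 199, 184, and 201 CPM in cattle, 69.0, 85.1, and 65.8 CPM in sheep, and 58.3, 49.7, and 53.7 CPM in goats. It was 2.66-fold and 3.61-fold higher in cattle (1.41 ± 0.22, adjusted p 0.000436, and 1.85 ± 0.23, adjusted p 8.86e-05). For both genes the cattle libraries did not overlap the others, with opposite directions.

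CCHCR1, a coiled-coil protein gene, had 0.751, 1.48, and 0.853 CPM in cattle, 6.43, 9.87, and 9.25 CPM in sheep, and 7.20, 14.04, and 33.9 CPM in goats (-3.04 ± 0.55, adjusted p 0.000981, and -4.15 ± 0.57, adjusted p 0.000186). DDR1, a collagen receptor, had 3.17 to 4.54 CPM in cattle, 8.05 to 13.0 CPM in sheep, and 6.29 to 9.07 CPM in goats, and its call against goats (-1.07, adjusted p 0.016) was lost without cattle B (adjusted p 0.0659) and with the exon-length offset, where it was -0.14 (adjusted p 0.731). With the offset DDR1 was higher in sheep than in goats (1.65, adjusted p 0.00371). MRPS18B, a protein of the mitochondrial ribosome, had 74.7, 81.1, and 83.8 CPM in cattle and 30.1 to 55.3 CPM in the other libraries. With the exon-length offset both calls were lost, and the differences of 0.93 and 0.94 became 0.31 and 0.07 (adjusted p 0.365 and 0.855). They were also lost without sheep C against sheep (adjusted p 0.0673) and without goat B against goats (adjusted p 0.0565). PPP1R10 (1.03) and GTF2H4 (-0.96), called between cattle and goats, each lost the call without 3 or more of the single libraries: cattle B and goat B for both, with cattle A and goat A for PPP1R10 and cattle C for GTF2H4 (adjusted p up to 0.0867 and 0.0713). PPP1R10 was also not called with the offset (0.64) or without TMM factors (0.74). GNL1, a GTP-binding protein, was not called, but with the offset GNL1 (-0.84, adjusted p 0.0346) and GTF2H4 (-1.06, adjusted p 0.0132) were lower in cattle than in sheep. Of the unpaired cattle genes of the list, TUBB, a beta tubulin, had 92.2 to 136 CPM, MDC1 56.4 to 59.0 CPM, TRIM39 22.3 to 22.6 CPM, and IER3 15.3 to 21.4 CPM, whereas TRIM10, TRIM15, and TRIM40 stayed at or below 0.303 CPM.

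The flank held abundant genes that differed between animals and species. ELOVL5, an elongase of polyunsaturated fatty acids (chr23:25400733-25474020), had 1416, 1756, and 414 CPM in cattle, 147, 70.1, and 104 CPM in sheep, and 123, 34.1, and 7.80 CPM in goats. It was 11.2-fold higher in cattle than in sheep (3.48 ± 0.86, adjusted p 0.00588) and 21.8-fold higher than in goats (4.45 ± 0.90, adjusted p 0.0018, and 3.96 without goat C), with cattle C far below the other 2 cattle. The annotated exons of ELOVL5 held 2770 bases in cattle, 1051 in sheep, and 1434 in goats. Among the alternatives, its differences fell as low as 2.08 against sheep and 3.50 against goats. Both calls were kept, but the adjusted p against sheep rose to 0.05. GSTA5, by its pairing a glutathione S-transferase alpha gene, had 1.47, 0.547, and 0.193 CPM in cattle, 684, 209, and 532 CPM in sheep, and 17.9, 1.68, and 4.39 CPM in goats. It was higher in sheep than in cattle (-9.37 ± 1.10, adjusted p 6.29e-05) and than in goats (5.88 ± 0.93, adjusted p 0.00114). The call between cattle and goats (-3.49 ± 0.89, adjusted p 0.00664) was lost with the exon-length offset. Copies of the alpha class have similar exons, so this pairing is uncertain. The unpaired genes of the cluster reached higher levels, with 4533, 3267, and 3395 CPM for ENSOARG00020020565 in sheep, 7410, 7939, and 1787 CPM for ENSCHIG00000008585 in goats, and 950, 680, and 255 CPM for GSTA1 in cattle. ENSCHIG00000008585 was the third highest gene of the region in goats, and goat C was the lowest, as cattle C was for GSTA1.

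Genes paired in all 3 species were compared with the other genes of the region. The median CPM of the 56 paired genes was 18.9 ± 1.59 (SD over 3 libraries) in cattle, 29.6 ± 3.80 in sheep, and 21.8 ± 1.34 in goats. For the 105, 108, and 107 other genes it was 1.09 ± 0.0220, 1.52 ± 0.403, and 1.40 ± 0.300. The ratio was 17.3 ± 1.64, 20.2 ± 5.03, and 16.1 ± 3.66. A gene needed 2 internal exons to be paired. With only genes that have at least 2, the ratio was 2.28, 4.50, and 5.03. Per kb of exon it was 10.9, 11.1, and 7.94.

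The unpaired genes of the region were more often expressed than unpaired genes elsewhere. Above 1 CPM were 51.4% of them in cattle, 54.6% in sheep, and 53.8% in goats, against 28.0%, 28.9%, and 29.9% of all other unpaired genes. In goats, 1 gene of the stretch was paired with genes elsewhere and is left out of these shares. Paired genes of the region were above 1 CPM in 85.7% (cattle), 92.9% (sheep), and 87.7% (goats, with that gene). Elsewhere these shares were 79.9%, 81.7%, and 82.4%. Unpaired genes of the region had medians of 1396, 920, and 978 exon bases, against 948, 864, and 819 elsewhere, which was not adjusted for. They held 50.6%, 60.6%, and 61.7% of the counts of the region, against 32.8%, 33.5%, and 37.7% of the counts elsewhere. Their 3 highest members were the C4 genes LOC107131209 and C4A with GSTA1 in cattle, the alpha transferase ENSOARG00020020565 with C4A and ENSOARG00020009383 in sheep, and the C4 gene ENSCHIG00000021630, ENSCHIG00000008585, and the class I gene ENSCHIG00000019467 in goats. Unpaired here thus included the multi-copy complement, transferase, and class I genes that carry much of the expression of the region.

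**Figure D5:**
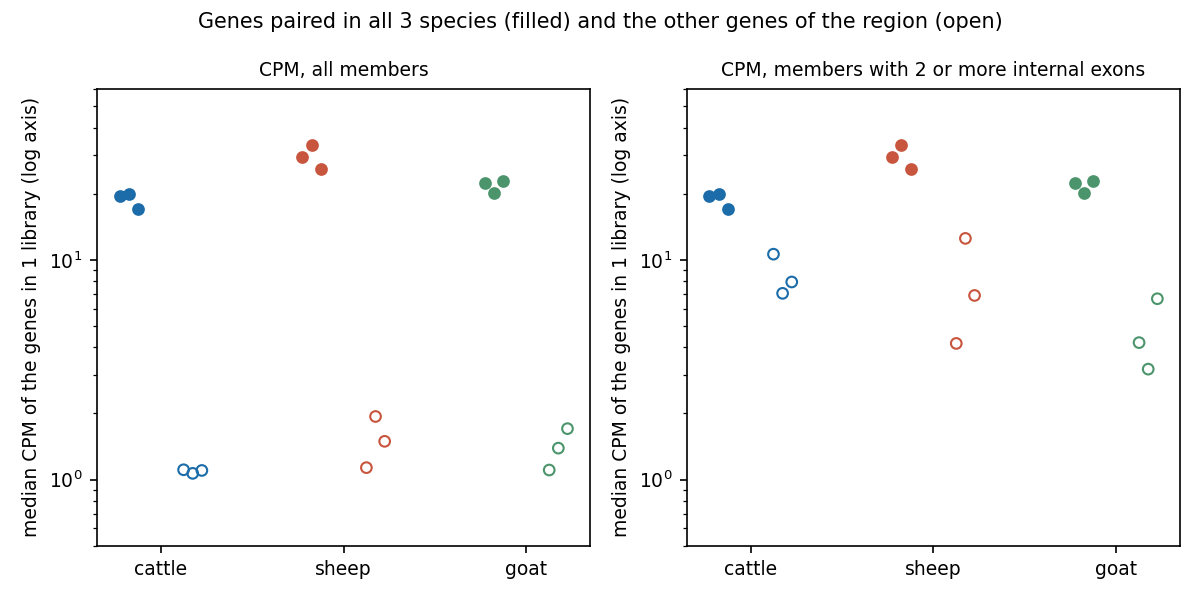
Median CPM in each library (log axis) of genes paired in all 3 species (filled) and of the other genes of the region (open), over all members (left) and over members with 2 or more internal exons (right). The open points lie between 1.07 and 1.94 CPM on the left and between 3.18 and 12.5 CPM on the right, and the filled points between 17.1 and 33.5 CPM in both.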

How the data were processed

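Gene counts of 9 liver libraries were used as deposited. Per the submitters' processing notes, the authors trimmed reads with Trimmomatic 0.39, aligned them with STAR 2.7.6, and made the counts with featureCounts. The study's methods name the 3 genome builds, whereas the labels give ARS-UCD1.2 for all samples. Settings for strand, read pairs, and multiple hits are not given in the sources used here.

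Genes were paired with at least 2 internal exons and 50% of them matched, a score 1.05 times the next best, and 2 other pairs within 10 genes. The pairing was tested on simulated data. RefSeq symbols (ARS-UCD2.0) were carried over by span and distance to anchors for 122 of 161 cattle members. Of these, 10 had the same span in both annotations. Some symbols rest on a near gene boundary with little overlap of the spans and are less certain. Examples are NCR3 (overlap 0.0714), BOLA-DRB2 (0.0989), AIF1 (0.120), DDR1 (0.303), and LTA (0.320). Genes above 1 CPM in at least 2 libraries were tested in edgeR 4.0.16 (R 4.3.3; quasi-likelihood test, TMM, all 9 libraries, adjusted p under 0.05). DESeq2 1.42.0 and the other alternatives are given in the closing section. Sums and shares were computed in Python 3.11.15 and compared by exact permutation tests.

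Genes are named when they are in the gene lists, among the 3 highest paired genes per kb of a stretch, the 3 largest called changes per direction and comparison, or the 3 highest unpaired genes of a species. The members and lists were chosen with earlier results of these data known, and the exon-length families and the flank after seeing the files. No 2 libraries of a species agreed within sampling noise (chi-square per degree of freedom 101.2 to 428.2). Depth limits cover counting error only.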

Additional observations from a re-analysis of the deposited data

How the results depend on the processing

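Of 150 alternative values of the summary results, 126 kept direction and size, 15 moved, and 9 reversed. Leaving the flank out of the region, chosen after seeing the data, ended the separation of sheep from cattle and from goats by the region's share. Cattle and goats still did not overlap. Of 50 calls of named genes, 25 were kept under every alternative that could be fitted. The number of members called without each library in turn ran from 22 to 30 for cattle against sheep, 26 to 35 for cattle against goats, and 7 to 14 for sheep against goats. The share of all genes called then ran from 38.4% to 55.3%, 42.3% to 55.9%, and 17.2% to 28.5%. With a 2-fold threshold, 15, 18, and 4 members were called, beside 22.2%, 24.5%, and 8.56% of all genes. Between sheep and goats, 16 members were called with DESeq2, 6 with CPM above 1 in every library, and 18 with the exon-length offset. Beside these stood 30.8%, 22.6%, and 26.6% of all genes. The cause was not tested, but the threshold and the filter are stricter by construction. Letters A to C do not link animals: same-letter deviations correlated from -0.153 to 0.280. The replicate block gave 26, 34, and 9 calls among the members, beside 48.2%, 51.6%, and 24.2% of all genes.

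With only paired genes, which leaves out C4 by construction, the class III share turned to -4.03 (cattle minus sheep) and -10.4 points (cattle minus goats), and the complement share to -3.47, -13.6, and for sheep minus goats -10.1. With C4 chosen by 10 shared exon lengths alone, an alternative added after seeing the data, the last was -2.30. The class III share of sheep minus goats, -0.0132 points, ran from -1.70 to 2.27 without 1 library, with 0.0470 without goat A and 1.56 without goat C. The ratio of paired to other genes was 2.28, 4.50, and 5.03 (cattle, sheep, goats) with at least 2 internal exons, 10.95, 11.1, and 7.94 per kb, and 2.69, 4.43, and 3.67 with a count in each library. The exon-length offset reversed SKIC2 (-0.0575 cattle minus sheep, 1.08 sheep minus goats), ABHD16A (0.63 cattle minus goats, 1.58 sheep minus goats), and BOLA-DRB3 (1.37 sheep minus goats). The 3 animals per species, near-identical gene copies, and species-specific gene models limit these values.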
